A study of Drosophila melanogaster with 10 samples.

Results

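Nuclear pore and nuclear transport genes were taken as a group defined by name alone. The group comprised every gene whose current symbol starts with Nup and a digit, 21 genes, and 21 further named genes of the pore, the Ran cycle, the import and export receptors and the messenger RNA export receptor. Of these 42 genes, 37 had a probe set annotated to that gene alone, with a mean log2 level above 4 over all arrays. These 37 were tested, among 6721 genes and unnamed probe sets in all. Nup160 and Kap-alpha3 had probe sets below that level, and Nup58, Gp210 and sbr were not analysed here. Megator, called Mtor in older lists, carries the symbol Mgtor in the gene table used, and was taken under that symbol.

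The nuclear pore complex is a ring-shaped channel through the nuclear envelope, built from scaffold rings, a central channel lined by flexible proteins with phenylalanine-glycine repeats, filaments on the cytoplasmic side and a basket on the nuclear side. Importins and exportins carry proteins through it and are loaded and unloaded by the small GTPase Ran, whereas bulk messenger RNA leaves with a separate receptor. In Drosophila some pore proteins, Nup153, Megator and Nup98 among them, are also known to bind chromatin away from or at the pore.

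Expression was measured on single-colour Affymetrix arrays in S2 cells, a Drosophila line of embryonic origin that resembles macrophage-like blood cells. JIL-1, a histone kinase of interphase chromatin, was depleted by RNA interference (RNAi) with double-stranded RNA (dsRNA), and cells were collected on day 7. Batch A held 3 control samples given GST dsRNA and 2 samples given dsRNA to the 5' part of JIL-1, and batch B held 2 control samples given EGFP dsRNA and 3 samples given dsRNA to the 3' part. All 10 samples received 10 µg of dsRNA, to GST, EGFP or JIL-1, and no untreated cells were analysed here. Batch, control dsRNA and JIL-1 dsRNA changed together, so these cannot be told apart in any difference between the batches. Levels are log2 values, and changes are log2 differences between JIL-1 RNAi and control with the standard error (SE) of a limma fit with a term for batch. A change was called, and the words rose and fell were used, where its Benjamini-Hochberg adjusted p over all 6721 tested was under 0.05.

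Array medians of the tested values lay between 9.22 and 9.42, and precision is limited by having 10 arrays. All 11 blood cell markers were measured above the filter, of which 1 rose and 5 fell after JIL-1 RNAi. Over all tested, 20.8% rose and 14.9% fell. The marker ush rose by 0.27, and the changes of those that fell were -2.14 (NimC1), -1.30 (Sr-CI), -0.90 (Ppn), -0.36 (eater) and -0.29 (Hml). The largest upward change of the 11, that of Pxn, did not pass (0.42, SE 0.15, adjusted p = 0.0543). Fitted by batch, Pxn changed by -0.042 (A, adjusted p = 0.681) and 0.88 (B, adjusted p = 3.06e-05). The difference between these changes, 0.93, passed the threshold (adjusted p = 0.00177), for Pxn alone of the 11. Between the controls, 2 of the 11 markers were higher in batch B and 6 lower, against 37.7% and 24.7% of all tested. NimC1 differed most, at 11.6 to 11.9 in batch A and 6.84 to 7.33 in batch B. Of 11 measured markers of neurons, muscle, fat body, follicle cells and testis, 7 never exceeded 4 in any sample, nSyb, Act88F, Fbp1, Yp1, Yp2, dj and Mst87F, whereas elav, brp, bt and bam did. Over the listed markers the log2 of the summed linear level was 16.1 to 16.5 for blood cells, with batch A above batch B in the controls, and 6.51 to 7.02 in batch A controls against 8.43 to 8.63 in batch B controls for neurons. The neuron sum was 6.68 to 6.74 and 7.99 to 8.40 in the JIL-1 RNAi samples of batches A and B. The muscle sum was 9.14 to 9.32 in batch A and 8.10 to 8.62 in batch B. The testis sum was 3.79 to 3.84 in controls and 4.37 to 5.71 after JIL-1 RNAi, through bam alone. The excess of 3' over 5' signal of the array controls, a measure of RNA integrity, differed between batches in opposite directions for Act5C and GAPDH. The 3' signal of Act5C exceeded its 5' signal by 0.738 to 0.961 over the batch A samples, by 2.77 and 3.10 in the other controls and by 2.28 to 2.44 in the batch B RNAi samples. For GAPDH the excess was 3.49 to 3.72 in controls and 3.22 to 3.38 after RNAi in batch A, and 2.40 in both controls and 2.17 to 2.22 after RNAi in batch B. The part of these differences in the changes below was not tested. In fits that took the Act5C or GAPDH excess as a covariate, 5 and 2 of the 9 rises described next were called. The share of all tested called in these fits is not given here. The GAPDH excess was lower in every RNAi sample than in every control of its batch. A fit with this covariate therefore cannot clearly tell it apart from RNAi. In bulk RNA fewer cells of a type and less RNA per cell cannot be told apart.

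JIL-1 itself was lower in every sample given its dsRNA than in every control of the same batch. Its level was 5.79, 5.95 and 5.66 in the batch A controls and 4.35 in both batch A RNAi samples. In batch B it was 7.53 and 7.34 in the controls and 5.66, 5.78 and 5.84 after RNAi. The batch B RNAi samples thus lay within the range of the batch A controls. The change was -1.56 (SE 0.08, adjusted p = 5.32e-07).

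Of the 37 pore and transport genes, 9 rose after JIL-1 RNAi (24.3%) and none fell. Over all tested, 20.8% rose and 14.9% fell, so the share of rises lay near the background. All 9 rises were in structural proteins of the pore, 9 of 25, and none of the 12 soluble transport factors passed the threshold. The difference between these classes was not tested. By limma at an unadjusted p under 0.05, 15 of the 37 were higher and none lower, against 27.7% and 18.2% of all tested. Among the 12 soluble factors 2 were higher and none lower at that threshold. With array weights 1 member also fell, the gene that encodes Nup98 and Nup96 as a joint precursor. RanGAP, Rcc1, msk and Karybeta3, all soluble factors, passed in some of the other settings. The median change of the 37 was 0.13, against 0.047 over all tested, and 28 of the 37 changes were above 0 (75.7%, against 58.8% over all tested). The changes were small. The largest, that of mbo, was 1.53-fold, and it was the only 1 of the 37 members to reach 1.5-fold. Over all tested, 484 of 6721 reached that size. The median size of change was 0.13 among the members and 0.16 over all tested, and the residual SD was 0.098 and 0.12. In 12 of the 37 every JIL-1 RNAi sample lay above every control of its batch in both batches (18.2% over all tested), and in none did every sample lie below (13.4%). In the plot of changes by role the rises of this fit all lie among the structural proteins.

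**Figure D1:**
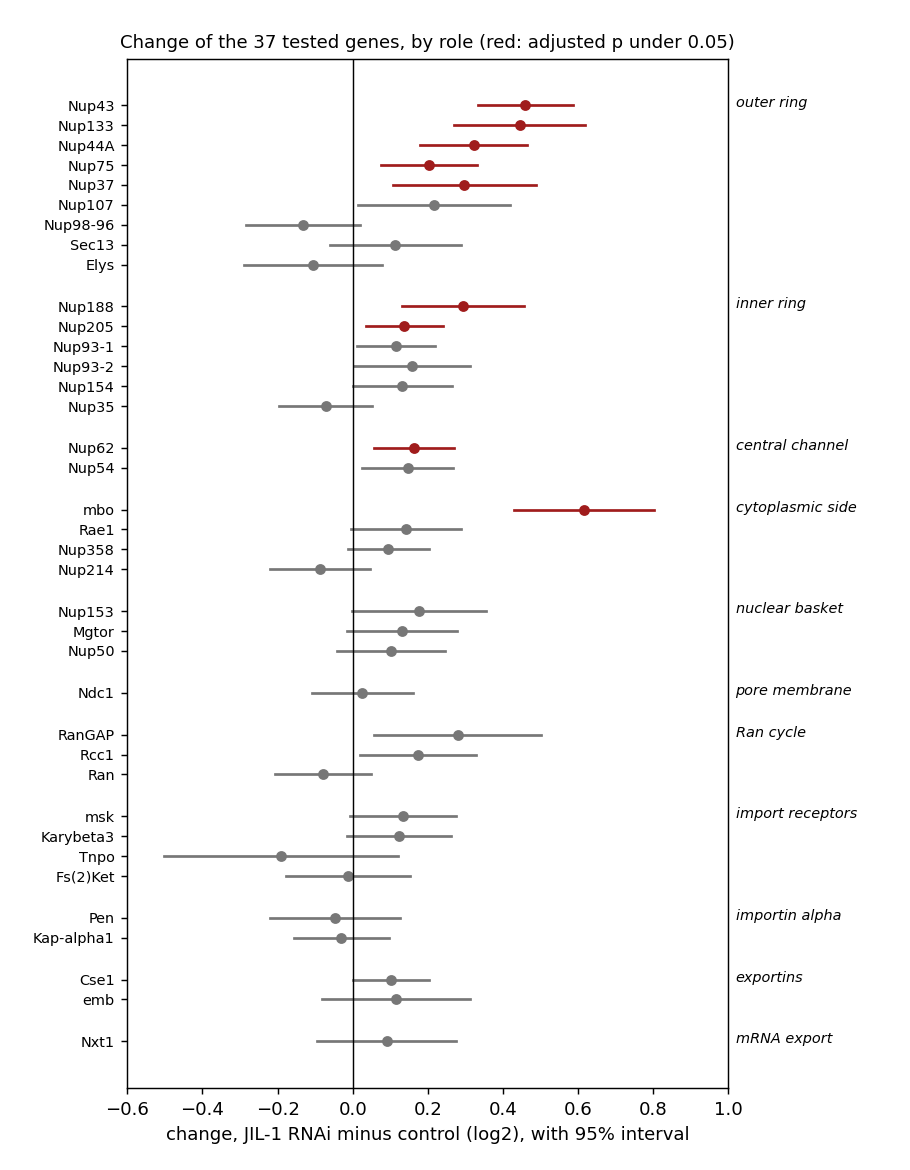
Change of each of the 37 tested genes (x axis, log2, JIL-1 RNAi minus control, 5 against 5 samples with a batch term), grouped by role, with the 95% interval of the limma fit as a line. The 9 changes past the threshold are red and belong to pore proteins, with mbo at 0.62 and Nup43 at 0.46 farthest from 0.

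The outer ring of the pore, built from the Y-shaped complex, held 5 of the 9 rises, among 9 tested members (55.6%, against 20.8% of all tested). Counts by role were not tested against that share. No outer ring member fell in this fit, but the gene of Nup98 and Nup96 did in batch B alone and with array weights. The median change of the outer ring was 0.22. Nup43, a beta-propeller subunit of the Y complex, was measured at 9.38, 9.50 and 9.46 in batch A controls and at 9.97 and 9.93 after JIL-1 RNAi. In batch B it stood at 9.84 and 9.78 in controls and 10.34, 10.23 and 10.11 after RNAi. The groups did not overlap within either batch, and the change was 0.46 (SE 0.06, adjusted p = 0.000241), or 1.38-fold. Nup43 was the only member whose call held in all 10 fits with 1 sample left out and in all 13 other settings tried.

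Nup133, a stalk subunit of the same complex, gave 8.39, 8.19 and 8.42 in batch A controls and 9.01 and 8.88 after RNAi. In batch B its controls were 8.99 and 8.88 and its RNAi samples 9.23, 9.21 and 9.19, again without overlap. It rose by 0.45 (SE 0.08, adjusted p = 0.00191), but did not pass with the GAPDH excess as a covariate (0.28, adjusted p = 0.272). Nup44A, the fly counterpart of Seh1, rose by 0.32 (SE 0.06, adjusted p = 0.00364). Its call held in 10 of the 13 other settings. Its batch A values were 10.17, 10.14 and 10.07 in controls and 10.62 and 10.44 after RNAi, and its batch B values 9.85 in both controls and 10.16, 10.16 and 9.96 after RNAi. Unlike Nup43 and Nup133, it was lower in the controls of batch B than in those of batch A. Its probe set is of a kind that may match transcripts of several genes.

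Nup37 rose by 0.30 (SE 0.09) and Nup75 by 0.20 (SE 0.06), with adjusted p of 0.023 and 0.0216. Each call held in 8 of the 10 fits with 1 sample left out. Of the 13 other settings, the call of Nup37 held in 9 and that of Nup75 in 8. In batch B the RNAi sample replicate 5 of Nup37, at 8.84, lay just below the lower control at 8.85, so that its groups overlapped there. The 4 remaining outer ring members did not pass. Nup107 changed by 0.22 (adjusted p = 0.0897) and Sec13, which also coats transport vesicles, by 0.11. Elys, which brings the Y complex to chromatin after mitosis, changed by -0.10, and the gene of Nup98 and Nup96, whose product is cut into a mobile and a scaffold pore protein, by -0.13. Nup160 was not tested, with values from 2.27 to 3.17 near the lower end of the scale.

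**Figure D2:**
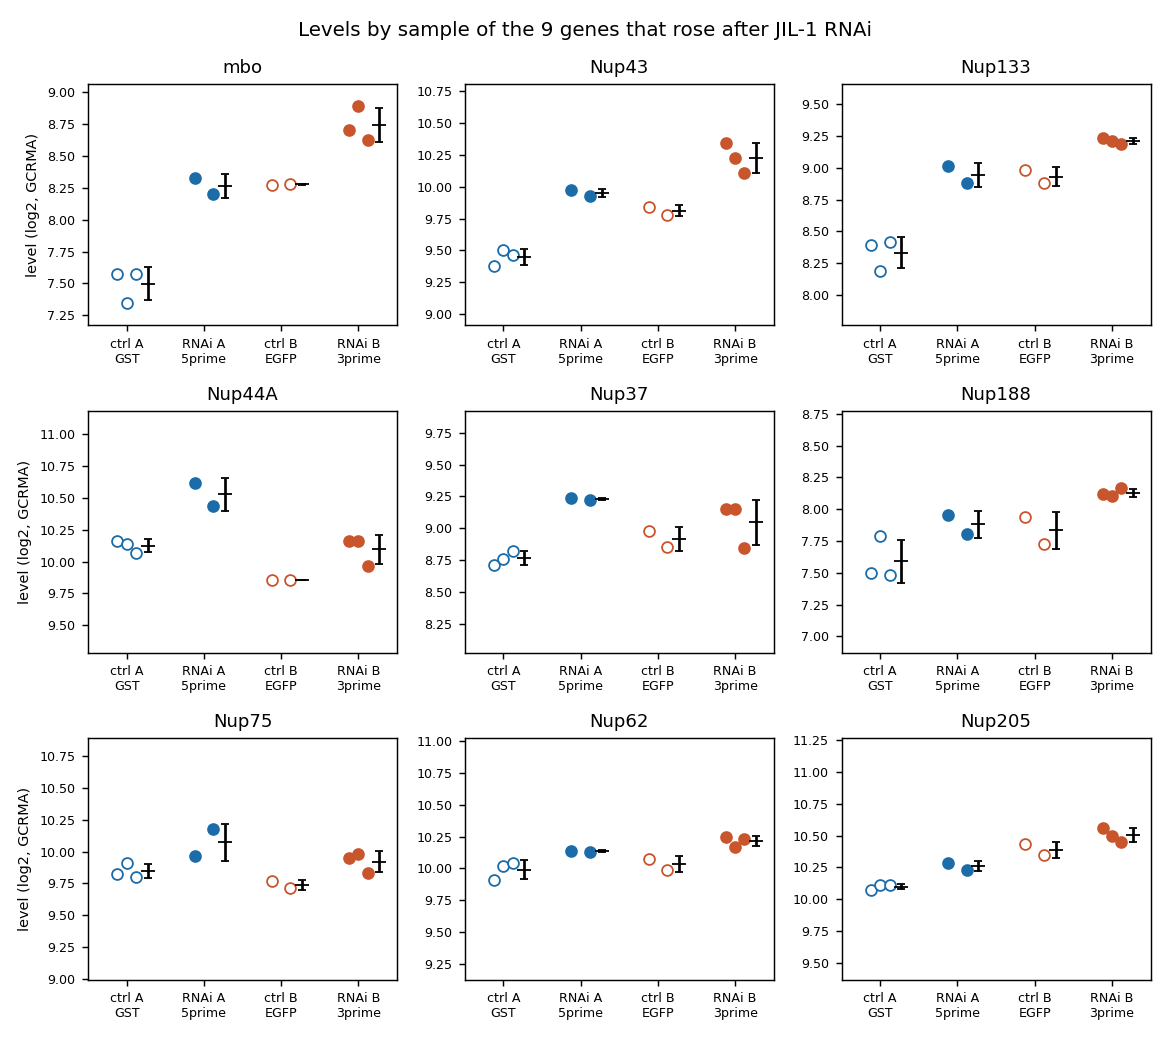
Level by sample (y axis, log2, GCRMA) of the 9 genes that rose, all panels spanning ranges of the same size. Open circles are controls, filled circles JIL-1 RNAi samples, blue batch A and orange batch B, and bars give the mean and SD of each batch and group (n = 2 or 3). Filled circles lie above open circles of the same colour in every panel except for 1 batch B sample of Nup37.

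The cytoplasmic side gave the largest change. mbo encodes the fly counterpart of Nup88, which holds Nup214 at the cytoplasmic face and is known in Drosophila to restrain export by the exportin emb. It was measured at 7.57, 7.35 and 7.57 in batch A controls and at 8.33 and 8.20 after JIL-1 RNAi. In batch B the controls were 8.27 and 8.28 and the RNAi samples 8.71, 8.89 and 8.63. The groups were separate in both batches, and the change was 0.62 (SE 0.08, adjusted p = 0.000424). With the GAPDH excess as a covariate it was 0.47, with an adjusted p of 0.103. The controls of batch B lay at the level of the RNAi samples of batch A. Nup214 itself changed by -0.087 (SE 0.06, adjusted p = 0.278), Nup358, a giant filament protein that binds Ran, by 0.095, and Rae1, a messenger RNA export factor, by 0.14, and none of the 3 passed.

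In the inner ring, the scaffold that lies against the membrane, 2 of 6 members rose (33.3%, against 20.8% of all tested). Nup188 was 7.50, 7.79 and 7.48 in batch A controls, 7.96 and 7.80 after RNAi, 7.94 and 7.73 in batch B controls and 8.12, 8.10 and 8.16 after RNAi. Its groups were separate, though narrowly in batch A, and its change was 0.29 (SE 0.07, adjusted p = 0.0118). The call of Nup188 held in 9 of the 13 other settings. Nup205, its paralog, rose by 0.14 (SE 0.05, adjusted p = 0.0397), from 10.07, 10.11 and 10.11 to 10.29 and 10.23 in batch A and from 10.43 and 10.34 to 10.56, 10.49 and 10.45 in batch B. The call of Nup205 was lost in 8 of the 10 fits with 1 sample left out, in which its change ran from 0.12 to 0.16. Nup93-1 (0.12), Nup93-2 (0.16), Nup154 (0.13) and Nup35 (-0.072) did not pass.

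In the central channel Nup62, a protein with phenylalanine-glycine repeats, rose by 0.16 (SE 0.05, adjusted p = 0.0245). Its call held in 9 of the 13 other settings. Its batch A values were 9.91, 10.02 and 10.04 in controls and 10.14 and 10.13 after RNAi, and its batch B values 10.08 and 9.99 in controls and 10.24, 10.17 and 10.23 after RNAi. Without JIL-1 RNAi replicate 2 or 3, or without control replicate 5, it did not pass. Its partner Nup54 changed by 0.15 (adjusted p = 0.0601), with every RNAi sample above every control of its batch.

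No member of the nuclear basket or the pore membrane passed the threshold. Nup153, a basket protein that anchors the pore to the lamina, was 8.74, 8.82 and 9.05 in batch A controls, 9.17 and 9.07 after RNAi, 10.04 and 9.82 in batch B controls and 9.92, 10.10 and 10.08 after RNAi. Its change was 0.18 (SE 0.08, adjusted p = 0.109). Mgtor, the large coiled-coil protein of the basket, changed by 0.13 and Nup50, a cofactor of import, by 0.10. Ndc1, a membrane protein of the pore, was 9.31, 9.18 and 9.26 against 9.30 and 9.41 in batch A and 9.43 and 9.47 against 9.51, 9.37 and 9.31 in batch B, a change of 0.025 (SE 0.06) with overlapping groups.

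Among the soluble factors, changes ran from -0.19 (Tnpo) to 0.28 (RanGAP), and the 95% intervals of the 12 together spanned -0.50 to 0.50. RanGAP, which makes Ran hydrolyse its GTP in the cytoplasm, came closest to the threshold. It was 10.33, 10.09 and 10.66 in batch A controls and 10.75 and 10.77 after RNAi, and 10.69 and 10.67 in batch B controls and 10.91, 10.85 and 10.78 after RNAi. The groups did not overlap, and the controls of batch A were the most scattered (change 0.28, SE 0.10, adjusted p = 0.0512). Rcc1, the chromatin-bound exchange factor that loads Ran with GTP, changed by 0.17 (adjusted p = 0.0743), and Ran itself by -0.078 (adjusted p = 0.311).

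Of the 4 import receptors of the importin beta family, msk, the counterpart of importin 7, had the smallest p. Its levels were 12.05, 12.32 and 12.09 against 12.28 and 12.34 in batch A and 12.14 and 12.18 against 12.19, 12.36 and 12.27 in batch B (change 0.13, SE 0.06, adjusted p = 0.128). Karybeta3, the counterpart of importin 5, changed by 0.12. Fs(2)Ket, the fly importin beta, changed by -0.013 (95% interval -0.18 to 0.15). Tnpo, the transportin, was the noisiest of these, with an SE of 0.14.

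The importin alpha adaptors, which link cargo signals to importin beta, lay near 0. Pen was 12.62, 12.52 and 12.85 against 12.61 and 12.78 in batch A and 12.83 and 12.82 against 12.81, 12.69 and 12.59 in batch B, a change of -0.047 (95% interval -0.22 to 0.13). Kap-alpha1 changed by -0.030 (95% interval -0.16 to 0.096). Kap-alpha3 was not tested, with 3.74 to 3.94 in the 5 controls and 3.82 to 4.50 after RNAi. Of the exportins, Cse1, which returns importin alpha to the cytoplasm, was 11.27, 11.25 and 11.23 against 11.40 and 11.42 in batch A and 11.30 and 11.39 against 11.37, 11.38 and 11.42 in batch B (change 0.10, SE 0.05, adjusted p = 0.109). emb, the exportin for leucine-rich export signals, changed by 0.12 (adjusted p = 0.334).

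Nxt1, the small partner of the messenger RNA export receptor sbr, moved in opposite directions in the batches. In batch A it was 11.93, 11.76 and 11.95 in controls and 12.22 and 12.13 after RNAi, and in batch B 11.95 and 11.96 in controls and 11.88, 11.80 and 11.84 after RNAi. Every batch A RNAi sample lay above its controls and every batch B RNAi sample below them. The change was 0.30 in batch A (SE 0.07, adjusted p = 0.0157) and -0.12 in batch B (adjusted p = 0.319). The difference of -0.42 (SE 0.11) had an adjusted p of 0.101 and so did not pass. With a variance trend and robust fit, or with array weights, it did pass, at -0.42 and -0.43.

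The batches were also compared as 2 separate knockdowns, each with its own dsRNA. In batch A 9 members rose and none fell, against a background of 17.3% rises and 10.9% falls. By limma at an unadjusted p under 0.05, 17 were higher and none lower there, against 26.1% and 14.5% of all tested. The 9 comprised mbo, Nup43, Nup133, Nup44A, Nup37, Nup107, Nup54, Rae1 and Nxt1. In batch B mbo (0.46, SE 0.10, adjusted p = 0.0123) and Nup43 (0.42, SE 0.08, adjusted p = 0.00675) rose and the gene of Nup98 and Nup96 (-0.27, SE 0.07, adjusted p = 0.0338) fell, against a background of 7.44% rises and 10.2% falls. The latter was 9.44 and 9.51 in the batch B controls and 9.25, 9.13 and 9.23 after RNAi, whereas in batch A its groups overlapped. Without control replicate 5 none of the members passed in batch B, and without control replicate 4 only Nup43 did.

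The members had a median change of 0.16 in batch A, against 0.072 over all tested, and of 0.072 in batch B, against 0.014. Of the 37, 29 had the same sign in both batches. The change in batch B was the lower one in 33 of the 37, leaving 10.8% in which it was the higher one, against 37.6% of all tested. The median difference was -0.13, against -0.061 over all tested. No member passed the test of the difference between batches, in which 0.684% of all tested were higher and 0.699% lower in batch B. By limma at an unadjusted p under 0.05, 4 members (10.8%) were lower and none higher, against 10.2% and 4.61% of all tested. They were Nup133, Nup37, Nxt1 and the gene of Nup98 and Nup96. The plot of one batch against the other shows mbo and Nup43 at the upper right and most members below the diagonal.

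**Figure D3:**
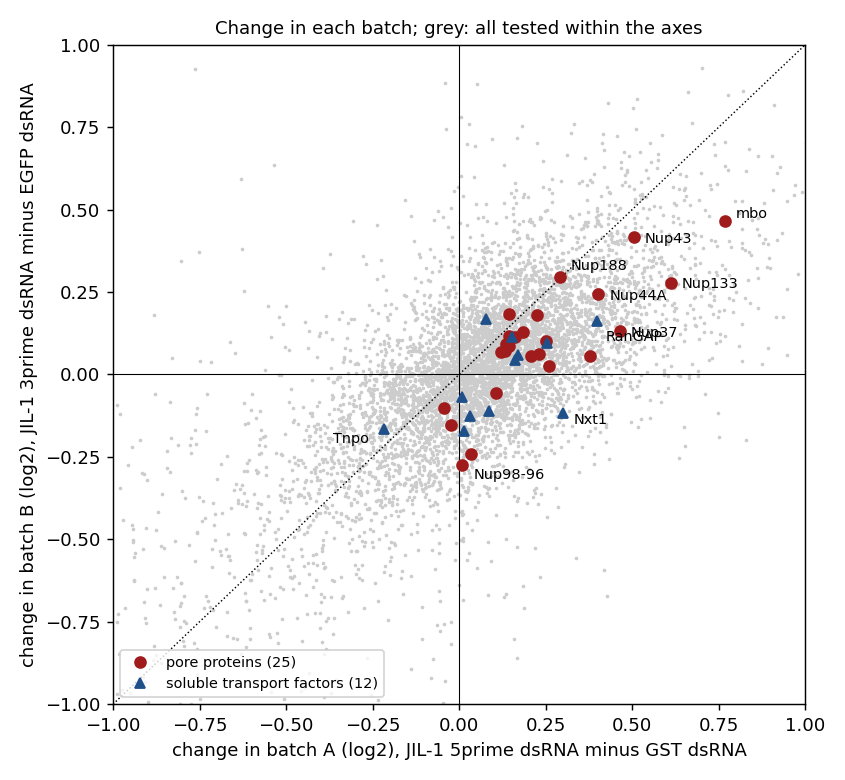
Change in batch A (x axis, log2) against change in batch B (y axis, log2) for 25 pore proteins (red circles) and 12 soluble transport factors (blue triangles), with all other tested genes within the axes in grey and the line of equal change dotted. mbo lies at 0.77 and 0.46, Nup43 at 0.50 and 0.42, and Nxt1 at 0.30 and -0.12.

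The control samples of the batches differed more than RNAi and control did. Between them 16 of the 37 members were higher in batch B and 3 lower, against 37.7% and 24.7% of all tested. The median difference was 0.17, and 0.10 over all tested. Tnpo was 9.41, 9.91 and 9.24 in batch A controls and 10.72 and 10.75 in batch B controls, a difference of 1.22 (SE 0.21, adjusted p = 0.000789). Nup154, an inner ring protein known in Drosophila for its part in germ line development, was 9.21, 9.12 and 9.17 against 10.15 and 10.30, a difference of 1.07 (SE 0.08, adjusted p = 6.47e-06). Nup153 differed by 1.06 (SE 0.11, adjusted p = 4.89e-05) and emb by 0.81 (SE 0.13, adjusted p = 0.000485). These 4 did not change past the threshold after JIL-1 RNAi. The 3 members lower in batch B were Sec13, Nup44A and Nup35.

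Probe sets of 1 gene did not always agree on this difference. Fs(2)Ket was the only member with 2 probe sets. The one used here, of a kind that may match transcripts of several genes, differed between the controls by 0.11 (SE 0.10). The other differed by 1.66 (SE 0.12) in a fit that kept every probe set. Their changes after JIL-1 RNAi were -0.013 and -0.16, neither past the threshold. The excess of 3' over 5' signal also differed between the batches, as given above, and whether it moved these values was not tested.

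**Figure D4:**
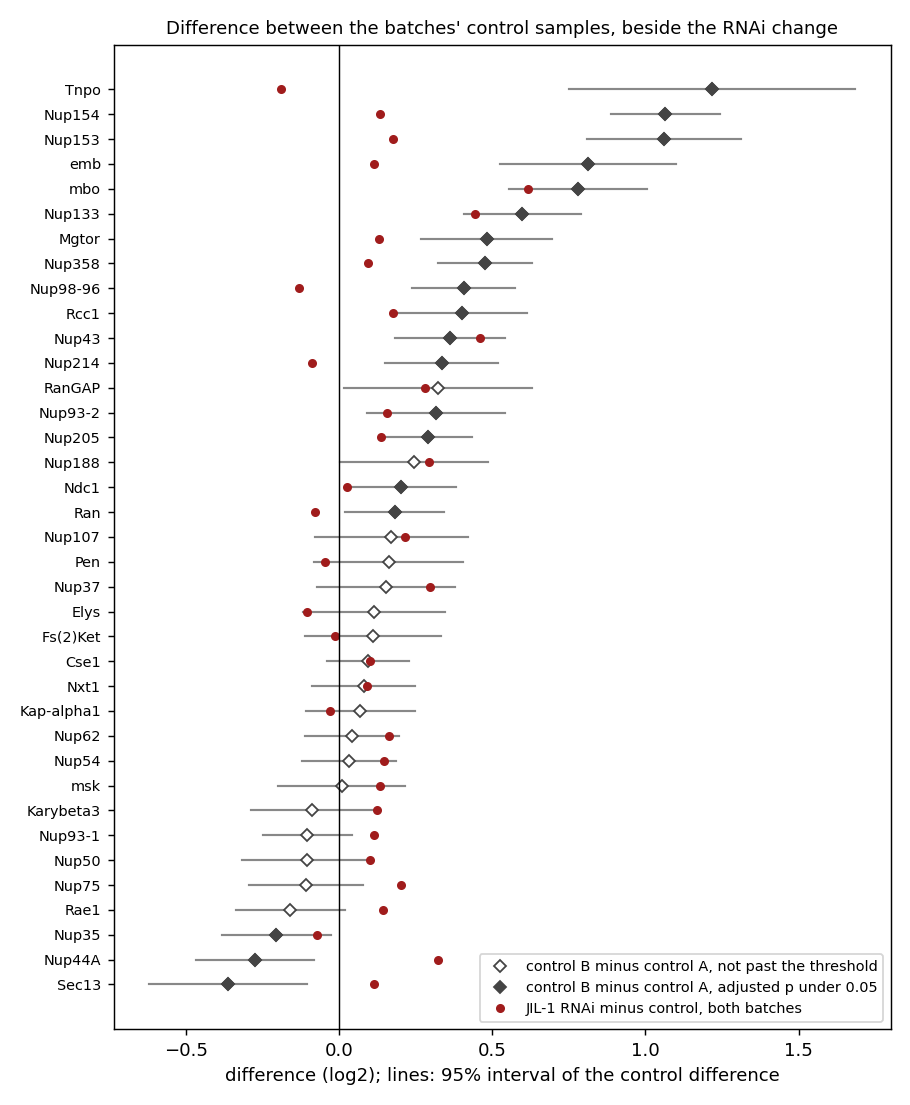
Difference between control samples of batch B and batch A (diamonds, log2, with the 95% interval of the limma fit, filled where adjusted p is under 0.05) beside the change after JIL-1 RNAi over both batches (red circles) for each of the 37 genes. Tnpo, Nup154, Nup153 and emb differ most between the controls, at 1.22, 1.07, 1.06 and 0.81, with RNAi changes between -0.19 and 0.18.

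By chromosome arm, 4 of the 10 tested members on 2R rose, 4 of 10 on 3R, 1 of 6 on the X and none of 7 on 2L or of 4 on 3L. Of all tested genes on these arms 21.7%, 24.4%, 13.8%, 22.8% and 23.4% rose, and with 4 to 10 members an arm the counts were not tested against each other. Median changes were 0.14 on 2R, 0.14 on 3R, 0.12 on 2L, 0.052 on 3L and 0.022 on the X. Over all tested genes of the same arms the medians were 0.063, 0.080, 0.062, 0.077 and -0.049. Nup37 and Nup358 are direct neighbours on 3R, and of these Nup37 rose and Nup358 did not pass (0.095, adjusted p = 0.151). Among the genes that rose, Nup44A and Nup75 each overlap another protein-coding gene in the gene table, ACC and Naus.

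Other genes of the same pathway were followed in lists not drawn from the naming rule. Over all tested, 20.8% rose and 14.9% fell, and the counts of these lists were not tested against those shares. The lists count tested genes only. The lamin genes Lam and LamC and the transport gene Snup were not analysed here. The RNA export genes thoc6 and xmas had means below the filter. Of 10 other transport factors 1 rose and none fell, with a median of -0.052. The 1 that rose was Arts, an importin of the beta family, at 0.23 (SE 0.07, adjusted p = 0.0346). By limma at an unadjusted p under 0.05, 2 of the 10 were higher and 2 lower, where 27.7% and 18.2% of all tested were. Of 13 RNA export factors 4 rose (30.8%, against 20.8% of all tested) and 1 fell (7.69%, against 14.9%), with a median of 0.13. Hel25E, the helicase of the messenger RNA export complex, rose by 0.28 (SE 0.06, adjusted p = 0.00389). Gle1, which activates a helicase at the cytoplasmic face of the pore, rose by 0.32 (SE 0.08, adjusted p = 0.00896), and PCID2, an export adaptor protein, by 0.24 (SE 0.08, adjusted p = 0.0332). Dbp80, the helicase that Gle1 is known to act on in other species, fell by 0.46 (SE 0.09, adjusted p = 0.00415). The remaining rise, that of Hpr1 (0.18, adjusted p = 0.0371), is named although it was chosen after its value was seen. Of 7 lamina and envelope genes LBR, the lamin B receptor, rose by 0.29 (SE 0.07, adjusted p = 0.00997) and Torsin, an ATPase of the envelope, fell by 0.19 (SE 0.06, adjusted p = 0.0285). Each is 14.3% of that list, against 20.8% rises and 14.9% falls over all tested. The median of the 7 was 0.040.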

How the data were processed

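The authors deposited log2 values, 1 for each probe set and sample, which the submitters' processing notes credit to GCRMA, a method that subtracts background by base composition, brings arrays to 1 distribution and combines probes. No version, and nothing on joint normalization of the batches, was found in the labels. That the scale is log2 was read from the range, 2.20 to 15.7. Between 50.5% and 51.8% of an array's probe sets lay within 0.01 of the lowest value, so changes of dim genes are compressed. RNA was extracted by either of 2 methods, and the labels do not say which sample had which.

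The platform annotation named the probe sets, and the gene table of Drosophila Release 6 gave current symbols (13544 of 13647 single-gene probe sets matched). Each gene was represented by its probe set with the highest mean, controls of the array were dropped, and a mean above 4 was required. Of the members' probe sets, 5 are of a kind that may match transcripts of several genes (Nup44A, Ran, Rcc1, Fs(2)Ket and Tnpo).

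Group and batch were the terms of the fit across all genes, made with limma 3.58.1 under R 4.3.3 (lmFit, eBayes, two-sided p). A fit of 4 means, for each batch and group, gave changes within batches, their difference and the difference between controls. The fit was tested on simulated data. The series calls the samples biological replicates. No pair within a batch and group was duplicated (SD of the difference 0.155 to 0.264).

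Per-sample values are given for JIL-1 and, in each role, for up to 3 called members in order of p, or else the 1 of smallest p. Also named are the 4 largest control differences, members not tested and up to 4 called genes of each other list; further members are named to complete their role. The members, lists and tests were chosen with earlier results of these data known. The closing section gives the alternatives tried. Sequences are not printed.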

Additional observations from a re-analysis of the deposited data

Results flagged for a closer look

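Each of 76 groups examined, for 37 members and JIL-1, held 5 samples drawn from both batches. The criterion was one that chance meets in about 1 in 20 groups of like samples, and that rate may not hold across batches. By this criterion 2 groups held a sample that stood apart from the others. For Nup37 it was JIL-1 RNAi replicate 5 of batch B, whose level of 8.84 lay below the next lowest, 9.15, by 0.784 of the range of the group. For Nxt1 it was control replicate 2 of batch A, whose level of 11.8 lay below the next lowest, 11.9, by 0.809 of the range. Without the first sample the change of Nup37 was 0.36 in place of 0.30.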

How the results depend on the processing

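Across the alternatives no called change of a member reversed. The counts below come without the share of all tested in the same setting. They therefore cannot be read against a background. The 9 rises all remained with batch as a random block, a mean above 6, quantile normalization, a variance trend and robust fit, weighted arrays, all probe sets kept, and values under 4 raised to 4, with 0 to 2 further members. Arrays set to a common median kept 8 of the 9 and no filter kept 6. Without a batch term 1 member rose, Nup43, and JIL-1 itself did not pass. There were 5 rises with the Act5C excess as a covariate and 2 with the GAPDH excess, Nup43 and Nup188 (median change 0.0397, and 0.015 over all tested). At an adjusted p under 0.1 there were 14 rises and with a 1.5-fold minimum 1. With 1 sample left out the rises ranged from 5 (without JIL-1 RNAi replicate 2) to 12 (without JIL-1 RNAi replicate 5). With array weights 1 member fell. In batch B 1 member was called with no filter, 5 with quantile normalization, 11 with array weights and 0 to 5 with 1 sample left out. In the difference between batches 1 member, Nxt1, was called with a variance trend and robust fit and 1 with array weights. Where a batch and group kept 1 sample, it was assumed to vary like the others. The labels number the replicates alike in both groups, but number 3 lies in different batches and so cannot pair samples. The deviations of same-numbered samples correlated between -0.30 and 0.24, and 1 of 10 samples correlated best with its own number. With 2 or 3 samples to a batch and group these deviations depend on each other. Whether the other numbers pair samples was therefore not settled. With the replicate number as a block 3 members rose, Nup133, Nup43 and mbo.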

Other observations

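The gene bam, a regulator of germ cell differentiation listed here as a testis marker, lies 2 protein-coding genes from Nup37 on arm 3R. It was not tested, its mean being 3.37, but its level was 2.20 to 2.37 in the 5 controls and 5.10 and 5.43 in the JIL-1 RNAi samples of batch A, and 3.52 to 4.59 in those of batch B. Among the next protein-coding genes on the other side of Nup37, CG11858 rose by 0.35 (SE 0.08, adjusted p = 0.0089 in the limma fit), Kdsr fell by 0.18 (adjusted p = 0.0491) and Nup358 and CG11857 did not pass. These genes were chosen after their values were seen.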
